A study of Mus musculus with 6 samples.

Results

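The genes that move Ca2+ out of the cell were followed in cochlear tissue of mice that overexpress Kir2.1 and of littermate controls. They were 10 of the 24411 gene symbols counted: the K+-dependent Na+/Ca2+ exchangers Slc24a2, Slc24a3 and Slc24a4, the Na+/Ca2+ exchangers Slc8a1, Slc8a2 and Slc8a3, and the plasma membrane Ca2+ pumps Atp2b1, Atp2b2, Atp2b3 and Atp2b4. The group was chosen from measured values: Slc24a2 was picked because its difference between Kir2.1-OE and control was among the highest of all genes, and the other members were added by family. Fold changes of the members between the genotypes are therefore given as a description, with no p-value.

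Kir2.1-OE mice were Otof rtTA+/-; Kir2.1+/-, so that doxycycline (DOX) switched on Kir2.1, a K+ channel of the inward rectifier class, from the promoter of Otof. That gene is used mainly by inner hair cells (IHCs) within the cochlea. By the study's methods DOX was at 0.5 mg/ml in the water of pregnant and nursing mothers and of weaned pups, and the mice sampled were P9 pups. The controls, labelled WT, were Otof rtTA+/-; Kir2.1+/+ littermates that also carried the rtTA allele and were also exposed to DOX. Each group had 3 libraries at P9, and each library was 1 pool of 8 cochleae from 4 mice, so the pool is the replicate and p-values cover the spread between pools. The labels give the tissue as cochlea, and the study's methods describe it as sensory epithelium dissected from the organ of Corti, in which IHCs are a minority beside outer hair cells, supporting cells, nerve fibres, glia and other cells.

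Cytosolic Ca2+ is kept low by 2 kinds of transporter in the plasma membrane. The pumps use ATP, bind Ca2+ tightly and work at low turnover, whereas the exchangers use the Na+ gradient, and in the Slc24 family also the K+ gradient, to clear larger loads quickly. In the cochlea the pump of Atp2b2 is known for extruding the Ca2+ that enters through the transducer channels of the hair bundle, and that of Atp2b1 for the basolateral membrane of IHCs. Slc24a2 and Atp2b3 are best known from neurons, and Slc8a1 from the heart.

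The 4 pumps are close relatives, and their coding sequences were identical at 72% to 78.3% of aligned bases, with Atp2b2 and Atp2b3 the most alike. A window of 60 coding bases around the codon of the aspartate that is phosphorylated in every transport cycle, one of the most conserved parts of the pump, is given 5′ to 3′ from the GENCODE transcripts for Atp2b1, Atp2b2 and Atp2b4 because it shows how reads of related pumps are told apart. Capitals mark the 16 positions at which these 3 are not all the same.
Atp2b1: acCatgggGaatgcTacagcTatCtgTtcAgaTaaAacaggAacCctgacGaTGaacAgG
Atp2b2: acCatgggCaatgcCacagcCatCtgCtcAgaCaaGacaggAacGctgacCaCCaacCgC
Atp2b4: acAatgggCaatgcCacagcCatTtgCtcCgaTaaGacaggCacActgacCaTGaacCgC
Coding sequences of the 3 Slc8 genes were identical at 68.6% to 71.6% of aligned bases and those of the 3 Slc24 genes at 62.1% to 69.2%. Of the 31-base words in the transcript of Slc24a2, 0.0286% were also found in transcripts of another gene, and the largest share, in Atp2b1, was 3.38%. The number of words shared with other members ranged from 0 to 33 per gene. Estimated counts can be split between genes over such shared stretches.

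Slc24a2 lies on chromosome 4 between positions 86983124 and 87230477 of mm10, on the minus strand. RefSeq gives it 2 start sites, and the bases around each, from the GRCm38.p6 table, are printed since it is the member that differed most. Capitals mark matches to motifs searched on both strands.
Slc24a2, chr4:87230491-87230790, minus strand: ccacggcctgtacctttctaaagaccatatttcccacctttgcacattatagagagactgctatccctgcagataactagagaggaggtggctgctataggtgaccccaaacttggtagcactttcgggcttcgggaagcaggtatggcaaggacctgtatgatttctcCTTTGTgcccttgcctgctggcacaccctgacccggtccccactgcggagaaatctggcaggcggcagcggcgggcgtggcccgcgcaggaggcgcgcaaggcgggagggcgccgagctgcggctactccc
Slc24a2, chr4:87227914-87228213, minus strand: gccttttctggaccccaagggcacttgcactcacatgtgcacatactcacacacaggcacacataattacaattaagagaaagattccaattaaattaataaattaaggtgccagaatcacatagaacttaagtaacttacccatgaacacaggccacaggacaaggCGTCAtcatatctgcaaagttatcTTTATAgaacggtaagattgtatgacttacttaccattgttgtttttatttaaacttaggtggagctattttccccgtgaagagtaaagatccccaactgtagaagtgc
The upstream window was 60% GC and held 1 match to the SOX motif ACAAAG, which 18.7% of all 32851 promoter windows also held. The downstream window was 38.7% GC and held 1 match to TGACG, an arm of the cAMP and Ca2+ response element, and 1 to the TATA motif TATAAA. These letters were present in 20.8% and 13.6% of all windows. The complete response element TGACGTCA was in 1.79% of all windows and in none of the 14 windows found for 9 of the members. TGACG, which lies within that element, was in 4 of the 14, the GC box GGGCGG in 6 of 14 against 35.7% of all windows, and the E-box CACGTG in 2 of 14 against 7.15%. A match is a description of the letters and not of binding. Atp2b3 had no entry.

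Counts assigned to genes ranged from 35430940 to 38193109 per Kir2.1-OE library and from 37063812 to 41205047 per control library. Values below are normalized counts, which are reads scaled by TMM, a scaling that matches the bulk of genes between libraries, to the mean library. Kcnj2, the gene of Kir2.1, stood at 3612, 3813 and 2213 normalized counts in replicates 1 to 3 of Kir2.1-OE, against 235.8, 228.1 and 226.0 in controls, and these levels matched the labels of all 6 libraries. A gene was called when its adjusted p-value by the edgeR quasi-likelihood test was under 0.05 and its fold change above 1.5. By this rule 2365 of 15303 genes were called higher and 778 lower in Kir2.1-OE, while upper quartile scaling gave 1897 and 1378. The calls leaned towards long transcripts: 15.5% of all genes but 32.1% of those with a longest transcript over 4000 nt were called higher. All 9 members with enough counts to be tested belonged to that class of 5782 genes. Each tested member is therefore also given from a second fit that removed a trend with transcript length and GC content from each library, in which 6.46% of genes were called higher and 3.42% lower.

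In control cochlea the transporters differed widely in level, compared as CPM (counts scaled to a common library total) per kb of the longest transcript. Slc24a3 (mean 25.3, range 24.6 to 26.0 over 3 pools) and Atp2b1 (23.7, 22.8 to 25.4) were the most abundant, and their ranges overlapped. Slc8a3 followed at 14.4 with a wide range of 9.87 to 17.4, then Slc8a2 at 7.01 (6.59 to 7.57) and Atp2b2 at 5.43 (4.85 to 5.75). Atp2b4 (0.889, 0.866 to 0.923), Atp2b3 (0.744, 0.509 to 0.893) and Slc8a1 (0.687, 0.632 to 0.739) formed a low group in which neighbours overlapped. Slc24a2 was lower again at 0.389 (0.304 to 0.506). Slc24a4, an exchanger known from tooth enamel and olfactory neurons, was the lowest at 0.0271.

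The order depends on which transcript the reads came from. Over the median transcript of each gene Atp2b1 came first at 116 CPM per kb and Slc24a3 second at 57.2, Atp2b2 (9.42) and Slc8a2 (7.82) changed places, and Slc24a2 (1.89) stood above Atp2b3 (0.769). Slc24a4 stayed last at 0.0547.

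**Figure D1:**
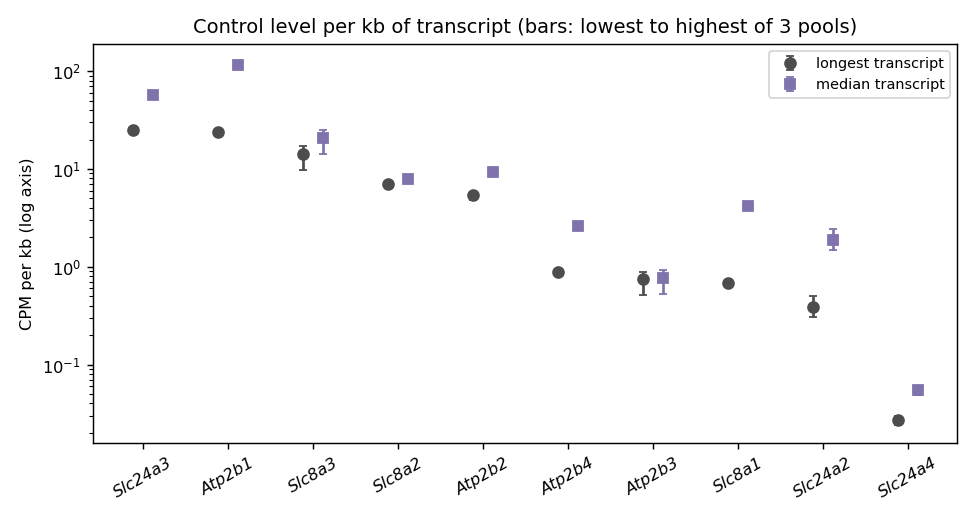
Level of each of the 10 genes in the 3 control pools, in CPM per kb on a log axis, over the longest (circles) or the median (squares) annotated transcript; bars span the lowest to the highest pool. Slc24a3 and Atp2b1 lead by either length, and Slc24a4 is last.

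Slc24a2 encodes NCKX2, which couples Ca2+ export to both Na+ entry and K+ exit. It was counted at 1196, 579.6 and 1369 in Kir2.1-OE and at 141.5, 199.9 and 120.1 in the controls. Every Kir2.1-OE pool lay far above every control pool, and Kir2.1-OE replicate 2 was well below the other pools of its genotype. The group means were 1048 ± 415 and 153.8 ± 41.3 (SD, n = 3 each), a 6.81-fold difference, and the fitted log2 fold change was 2.76 (SE 0.313). Among the 2856 called genes with a mean of at least 50 normalized counts and no overlap between the groups it ranked 2, after Kcnj2 (log2 fold change 3.80, SE 0.199) and before Iqsec3 (2.60, SE 0.376). It was 2.29 (SE 0.303) in the second fit and remained called. Leaving out any 1 library gave values from 2.5 to 3.03. In bulk tissue, a difference in the number of cells of a type and one in RNA per cell cannot be told apart, here and for every gene below.

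Neither of the other K+-dependent exchangers was called. Slc24a3, the NCKX3 exchanger, was at 3287, 3671 and 3194 in Kir2.1-OE and at 3834, 3737 and 3953 in controls. All Kir2.1-OE pools were below all control pools, with a log2 fold change of -0.18 (SE 0.0738). It was -0.45 (SE 0.0790) in the second fit, a larger difference in the same direction, and was called in neither. Slc24a4 had 11, 5 and 6 counts as deposited in Kir2.1-OE and 5, 5 and 4 in controls. These few counts, close to the limit of 3 that a count of 0 allows, kept it below the filter and out of the test.

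The Na+/Ca2+ exchangers of the Slc8 family, which work without K+, were not called. Slc8a1 (NCX1) was at 631.2, 585.6 and 660.1 in Kir2.1-OE and at 478.6, 512.5 and 437.7 in controls, without overlap, with a log2 fold change of 0.39 (SE 0.10) that was 0.09 in the second fit. Slc8a2 (NCX2) was at 1595, 1751 and 1348 against 1494, 1302 and 1356, and the groups overlapped. Its log2 fold change of 0.18 (SE 0.104) was -0.45 in the second fit, so its direction depends on the length and GC trend. Slc8a3 (NCX3) was at 3090, 3569 and 3517 in Kir2.1-OE and at 1825, 3212 and 2954 in controls. Control replicate 1 was far below the other libraries of this gene, the groups overlapped, and the log2 fold change was 0.35 (SE 0.176), or -0.0418 in the second fit; without that pool it was 0.14.

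Among the pumps, Atp2b3 (PMCA3) differed most. It was at 494.7, 270.8 and 745.8 normalized counts in Kir2.1-OE and at 144.5, 155.4 and 88.6 in controls. The groups were apart, and Kir2.1-OE replicate 3 was the highest and replicate 2 the lowest of its group, as for Slc24a2. The means were 503.8 ± 237.6 and 129.5 ± 35.8 (SD, n = 3 each), a 3.89-fold difference, with a log2 fold change of 1.95 (SE 0.345). In the second fit it was 1.59 (SE 0.333) and remained called, and leaving out 1 library gave 1.54 to 2.23.

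Atp2b2 (PMCA2), the hair bundle pump, was at 4059, 3634 and 4018 in Kir2.1-OE and at 1899, 1914 and 1617 in controls. Its pools were tightly grouped and far apart between the genotypes, with a log2 fold change of 1.11 (SE 0.0860) and a 2.16-fold difference of the means. The value in the second fit was 0.32, and it was not called. Its longest transcript is 8877 nt, against medians of 7130 nt for the tested members and 3381.5 nt for all genes tested with a length. Those of Slc24a2 (10531 nt), which remained called, and Slc8a1 (18464 nt) are longer still. The second fit removed a trend with both length and GC content, and their separate parts were not tested.

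Atp2b1 (PMCA1), the most widely expressed pump, was at 9850, 9713 and 8945 in Kir2.1-OE and at 6113, 6797 and 6149 in controls. The groups did not overlap, but the log2 fold change of 0.58 (SE 0.0763) was just under the 0.585 that a 1.5-fold change requires, and it was 0.23 in the second fit. It passed the rule without Kir2.1-OE replicate 3 (0.61) or without control replicate 2 (0.63). Atp2b4 (PMCA4) lay just inside, at 584.0, 605.6 and 626.3 against 381.2, 406.2 and 385.8, with a log2 fold change of 0.63 (SE 0.0919). In the second fit it was -0.0448, and with upper quartile scaling 0.54, and it was called in neither.

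**Figure D2:**
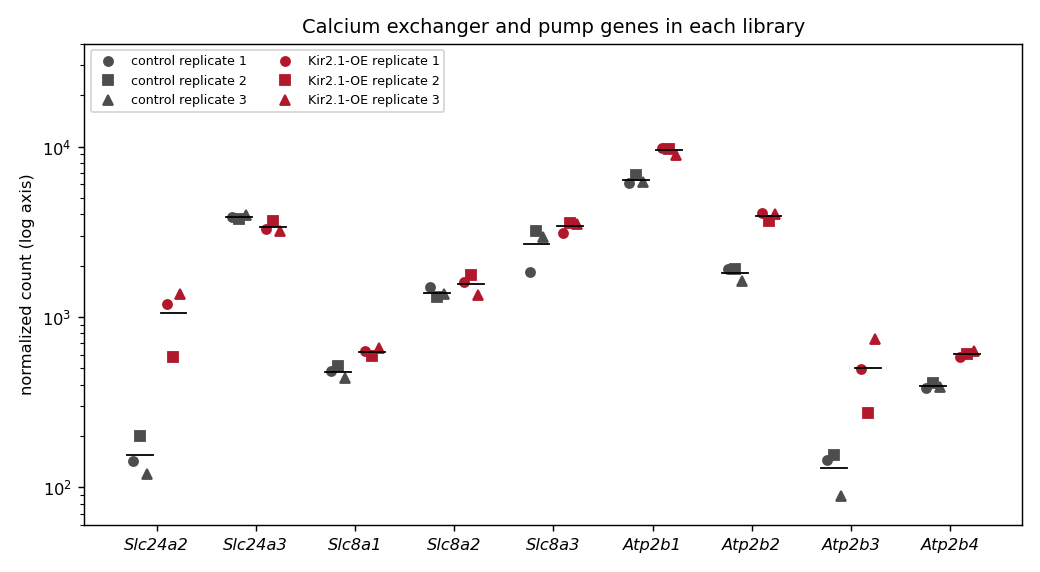
Normalized counts of the 9 tested genes in each of the 3 control (grey) and 3 Kir2.1-OE (red) pools on a log axis; lines mark group means. The Kir2.1-OE pools of Slc24a2 lie between 579.6 and 1369, above controls of 120.1 to 199.9, and the Kir2.1-OE pools of Slc24a2 and Atp2b3 spread more than those of the other 7 genes.

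In all, 4 of the 10 genes (Slc24a2, Atp2b2, Atp2b3 and Atp2b4) were called higher, beside 15.5% of all genes, and 0 were called lower, beside 5.08%. The groups did not overlap for 7 of the 9 tested members, 6 of them higher in Kir2.1-OE, where 61.6% of all genes did not overlap. The median log2 fold change was 0.58 for the tested members, 0.36 for all genes with a transcript over 4000 nt and 0.01 for all genes tested. In the second fit 2 members, Slc24a2 and Atp2b3, were called higher and 0 lower, and the median was 0.09 beside -0.04 for all genes. Slc8a2, Slc8a3 and Atp2b4 changed sign between the fits. Since the contrast chose the group, nothing is read from these counts.

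**Figure D3:**
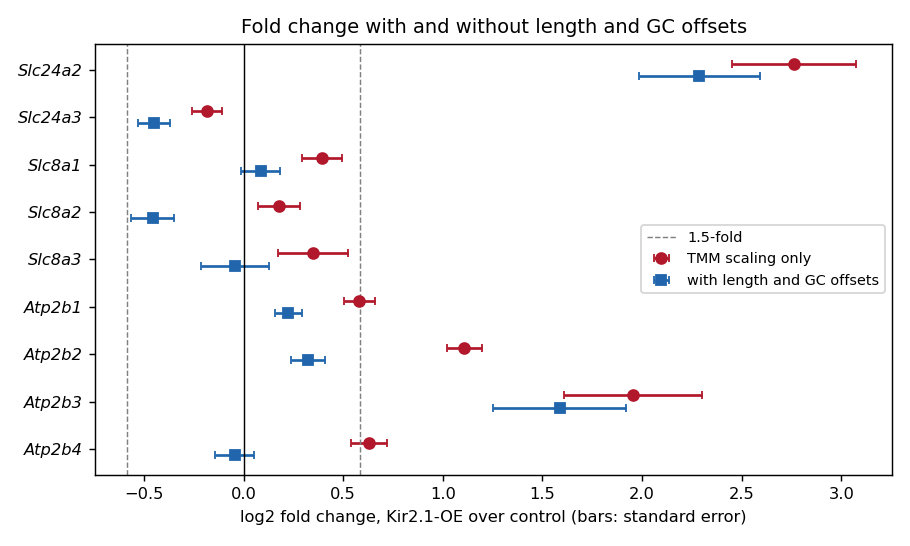
Log2 fold change (Kir2.1-OE over control) with its standard error for the 9 tested genes, with TMM scaling only (circles) and after length and GC offsets (squares); dashed lines mark a 1.5-fold change. Slc24a2 (2.76 and 2.29) and Atp2b3 (1.95 and 1.59) stay beyond 1.5-fold in both, and Atp2b2 drops from 1.11 to 0.32.

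The make-up of each family differed between the genotypes, and it is given as a description like the fold changes. Shares and sums were taken without the length and GC offsets. Between the fits the log2 fold changes of Atp2b1 and Atp2b2 went from 0.58 and 1.11 to 0.23 and 0.32. Of the summed CPM per kb of the 4 pumps, Atp2b1 held 77.1% ± 1.55 in controls and 69.0% ± 3.56 in Kir2.1-OE (SD, n = 3 each). Atp2b2 went from 17.6% ± 1.13 to 22.7% ± 0.912, and Atp2b3 from 2.40% ± 0.569 to 5.61% ± 2.64. Atp2b4 held 2.89% ± 0.102 in controls and 2.67% ± 0.155 in Kir2.1-OE, while its own level was called higher. The pump sum was 53.2, 50.1 and 51.2 CPM per kb in Kir2.1-OE and 30.2, 33.0 and 29.2 in controls.

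Among the exchangers Slc24a2 held 0.814% ± 0.202 of the summed level per kb in controls and 5.14% ± 2.16 in Kir2.1-OE. Slc24a3 held the largest share in both, 53.1% ± 4.23 and 42.7% ± 1.63, followed by Slc8a3 (29.8% ± 6.45 and 35.2% ± 1.97) and Slc8a2 (14.8% ± 2.20 and 15.2% ± 1.63). The exchanger sum was 50.4, 54.7 and 51.3 CPM per kb in Kir2.1-OE and 43.7, 49.8 and 49.8 in controls. That sum is also without the offsets. In the second fit the log2 fold changes of Slc24a3 (-0.45), Slc8a2 (-0.45) and Slc8a3 (-0.04), which hold the largest shares, were below 0. With the median transcript as the length, the shares of Atp2b3 were smaller, Slc24a2 held 2.05% ± 0.515 in controls and 12.4% ± 4.90 in Kir2.1-OE, where its mean then stood above that of Slc8a2 (8.50% ± 1.14) but not in replicate 2, and both genes still held more in every Kir2.1-OE pool than in every control pool.

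Slc24a2 and Atp2b3 varied more between pools of a genotype than most genes. The SD of log2 CPM within Kir2.1-OE was 0.665 for Slc24a2 and 0.732 for Atp2b3, and within controls 0.370 and 0.434, where the median over all genes was 0.124 and 0.123. Of the other members Slc8a3 came near this, with 0.440 within controls. Slc24a2 and Atp2b3 had the same order of pools, with Kir2.1-OE replicate 3 highest and 2 lowest, and control replicate 2 highest and 3 lowest. The order within Kir2.1-OE, taken here from Slc24a2, was also that of Slc8a1 and Atp2b3 among the tested members. It was found in 16.6% of all genes.

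Markers of spiral ganglion neurons moved with the same pools. The list was Nefh, Nefl, Nefm, Tubb3, Snap25, Gap43, Stmn2 and Rbfox3, and 7 of these 8 genes had Kir2.1-OE replicate 3 highest and 2 lowest. Their summed level was 899, 554 and 1417 CPM in Kir2.1-OE, against 346, 432 and 261 in controls, and none was at 0. In every Kir2.1-OE pool Nefm, Nefh and Nefl had the most reads, so this sum leans on them there. Of the 8, 5 (Nefh, Nefl, Nefm, Snap25 and Rbfox3) were called higher, in both fits. Stmn2 (log2 fold change 0.68, and 0.81 in the second fit), Tubb3 (0.38 and 0.45) and Gap43 (-0.12 and 0.17) were not called in either. Per 1000 reads of the 8 summed markers, Slc24a2 had 35.4, 27.9 and 25.7 reads in Kir2.1-OE and 10.9, 12.3 and 12.3 in controls. Its difference was smaller on this scale, but the groups stayed apart. That depends on the markers used. Against Nefh alone they overlapped: Slc24a2 stood at 1369 beside 11120 in Kir2.1-OE replicate 3, and at 120.1 beside 813.3 in control replicate 3. Per 1000 reads of the 8 markers, Atp2b3 had 14.7, 13.02 and 14.0 against 11.1, 9.59 and 9.04. Within each genotype its pools lay close together. The part of the neuronal markers in either result was not tested.

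**Figure D4:**
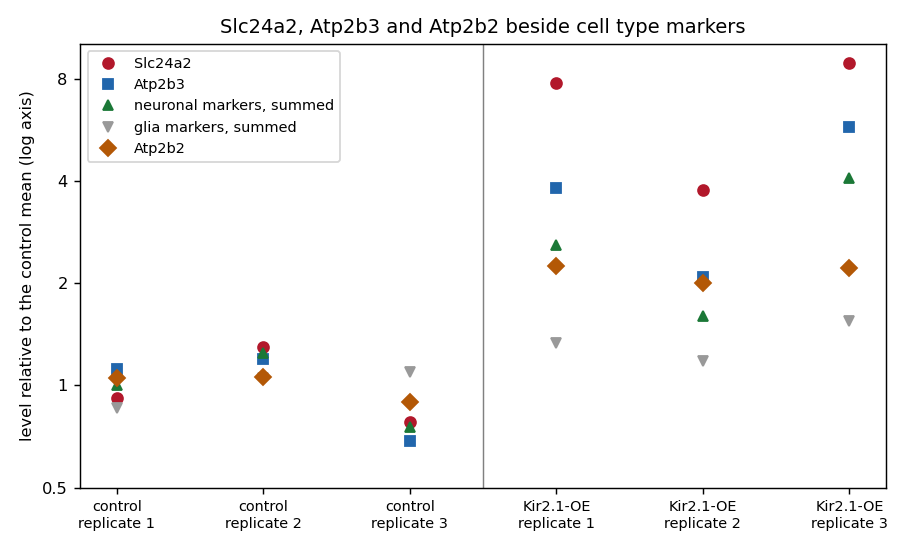
Level of Slc24a2, Atp2b3, Atp2b2 and the summed neuronal and glial markers in each pool, divided by its control mean, on a log axis. Slc24a2, Atp2b3 and the neuronal markers are all highest in Kir2.1-OE replicate 3 and lowest of that genotype in replicate 2, whereas Atp2b2 stays near 2 in all 3.

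Other cell type markers were read the same way. Summed inner hair cell markers (Slc17a8, Otof and Tbx2) were 227 to 271 CPM in Kir2.1-OE and 177 to 198 in controls, with Otof, whose promoter drives rtTA, called higher (log2 fold change 0.76, but -0.10 and not called in the second fit). Markers shared by hair cells (Myo7a, Pou4f3, Gfi1, Tmc1, Espn and Myo6) were 565 to 672 against 479 to 495, with 1 of 6 called higher, Myo7a, and those of outer hair cells (Slc26a5, Ocm and Ikzf2) 584 to 722 against 642 to 813, with 2 of 3 called higher. Of the outer hair cell markers Slc26a5 (0.62) and Ikzf2 (0.60) were the calls, and Ocm, with most of the reads, was at -0.30. Myo7a had a log2 fold change of 1.17, and 0.31 in the second fit. The other shared hair cell markers ranged from -0.25 (Gfi1) to 0.37 (Espn), and from -0.39 (Gfi1) to 0.12 (Pou4f3) in the second fit. After the offsets 0 of 3 inner hair cell, 0 of 6 shared and 1 of 3 outer hair cell markers were called. Glial markers were 9349 to 12295 against 6811 to 8681, with 1 of 5 called higher, and 2 of 5 after the offsets. Cartilage and bone markers were 17114 to 20623 against 7631 to 10661, with 2 of 4 called higher, and 1 of 4 after the offsets. Erythroid markers were 289 to 367 against 477 to 1190, with 3 of 5 called lower, and 1 of 5 after the offsets. Hbb-bs was at 0 in Kir2.1-OE replicate 3 and control replicates 2 and 3. Supporting cell, fibrocyte, smooth muscle and endothelial, and macrophage lists had ratios of group means from 1.07 to 1.47. In that order 1 of 4, 1 of 4, 3 of 5 and 0 of 3 markers were called higher, and as many after the offsets. Of their genes Myh11 was at 0 in control replicate 1. The part of these cells in the members' values was not tested.

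The genes whose profile over the 6 pools was nearest to that of Slc24a2 were found by the root mean square distance of log2 CPM centred on each gene's mean, among 13645 genes with a mean of at least 50 normalized counts. They were Nefh (distance 0.211), Ank1 (0.258), Iqsec3 (0.267), Kif5a (0.284) and Meg3 (0.326), of which Nefh encodes the heavy neurofilament chain, Ank1 an ankyrin and Kif5a a neuronal kinesin. Atp2b3 was at rank 21 (0.451), the nearest of the members, followed by Atp2b2 at rank 529 (0.874). The remaining tested members stood between ranks 2010 and 9429. After removal of the length and GC trend the 5 nearest were Camk4, Nefh, Zfp804a, Lancl3 and Iqsec3, and Atp2b3 was at rank 20. The 6 points share the 2 genotypes, so a likeness over them includes the difference between these.

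Other genes of Ca2+ handling, 34 chosen by known role, show what surrounded the exchangers and pumps. That list was made with earlier results of these data known, and the paper had already named Itpr1, Itpr2 and Itpr3 as upregulated. Its calls and p-values are therefore a description. Of the 34 genes, 32 had enough counts, and 7 were called higher and 1 lower, beside 15.5% and 5.08% of all genes. The calls came from the edgeR quasi-likelihood test with Benjamini-Hochberg adjustment over all genes. The median log2 fold change was 0.18. In the second fit 5 were called higher (Mcu, Calb2, Itpr3, Ryr1 and Ryr2) and Calb1 lower.

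Partners and regulators of the pumps were not called. Nptn and Bsg, which encode the accessory subunits neuroplastin and basigin, and Calm2 and Calm3, which encode calmodulin, the activator of the pumps, had log2 fold changes from -0.38 to -0.05. In the second fit they ranged from -0.18 to 0.03, with Calm2 moving from -0.38 to -0.01, and none was called. Slc24a5 and the mitochondrial exchanger Slc8b1 had values of 0.26 and 0.24, and neither was called. Slc24a1, an exchanger of rod photoreceptors, had at most 4 counts in any library and was not tested.

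Ca2+ pumps of internal stores were not called. Atp2a2, the widely expressed pump of the endoplasmic reticulum, had a log2 fold change of 0.52 (SE 0.0692, edgeR adjusted p = 0.00040), under the fold required, and Atp2a3, Atp2c1 and Atp2c2 ranged from -0.19 to 0.20. The muscle pump Atp2a1 had at most 10 counts and was not tested. The 7 genes of mitochondrial Ca2+ uptake were Mcu, Ccdc109b (an older symbol of Mcub), Micu2, Micu3, Smdt1, Mcur1 and Letm1. None was called in the first fit, with values from -0.55 to 0.55. The ends of that range were Smdt1, the small regulator of the uniporter, and Mcu, its pore. An edgeR adjusted p under 0.05 was reached by 5 of the 7, and by 4184 genes higher and 3590 lower of all 15303. In the second fit Mcu was at 0.61 and was called higher.

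Mobile Ca2+ buffers went in both directions. Calb1, which encodes calbindin, fell from 13006, 9912 and 9488 normalized counts in controls to 5548, 7022 and 6791 in Kir2.1-OE (log2 fold change -0.74, SE 0.133, edgeR adjusted p = 0.0016), and was lower in both fits. Calb2, which encodes calretinin, rose by 0.68 on the log2 scale (SE 0.192, edgeR adjusted p = 0.015). Kir2.1-OE replicate 3 held its highest value, 23168 beside 14383 and 12654, and without it the value was 0.36 and no longer called. Pvalb and Ocm, the genes of parvalbumin and oncomodulin, had values of -0.02 and -0.30 and were not called.

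Release channels of the stores made up 6 of the 7 calls higher. Their longest transcripts ran from 8990 to 16814 nt, in the class over 4000 nt of which 32.1% of genes were called higher. All 3 inositol trisphosphate receptors rose, Itpr1 by 0.97 (SE 0.109), Itpr2 by 1.26 (SE 0.134) and Itpr3 by 1.54 (SE 0.120) on the log2 scale, with edgeR adjusted p-values of 0.00022, 0.00018 and 0.00012. They were then, in the second fit, at 0.25, 0.50 and 0.59, and Itpr3 alone remained called. Ryanodine receptors were counted at low levels and rose by larger factors: Ryr1 stood at 225.8, 213.9 and 102.6 in Kir2.1-OE and at 30.1, 28.2 and 42.8 in controls (log2 fold change 2.43, SE 0.330, edgeR adjusted p = 0.00045). Its lowest Kir2.1-OE pool was replicate 3, in which Slc24a2 was highest. In the second fit Ryr1 was at 1.27 and Ryr2 at 1.08, and both remained called. Ryr2, at 110.9, 71.0 and 128.0 against 30.1, 29.1 and 23.4, rose by 1.90 (SE 0.284, edgeR adjusted p = 0.00069). Ryr3 rose by 1.5 (SE 0.491, edgeR adjusted p = 0.029) from under 20 counts, and the call ended without Kir2.1-OE replicate 1 (1.58) or 3 (0.94), without control replicate 1 (1.54) or 3 (1.23), and in the second fit (0.73). The entry genes Stim1, Stim2, Orai1, Orai2 and Orai3 had values from -0.41 to 0.51 and were not called.

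**Figure D5:**
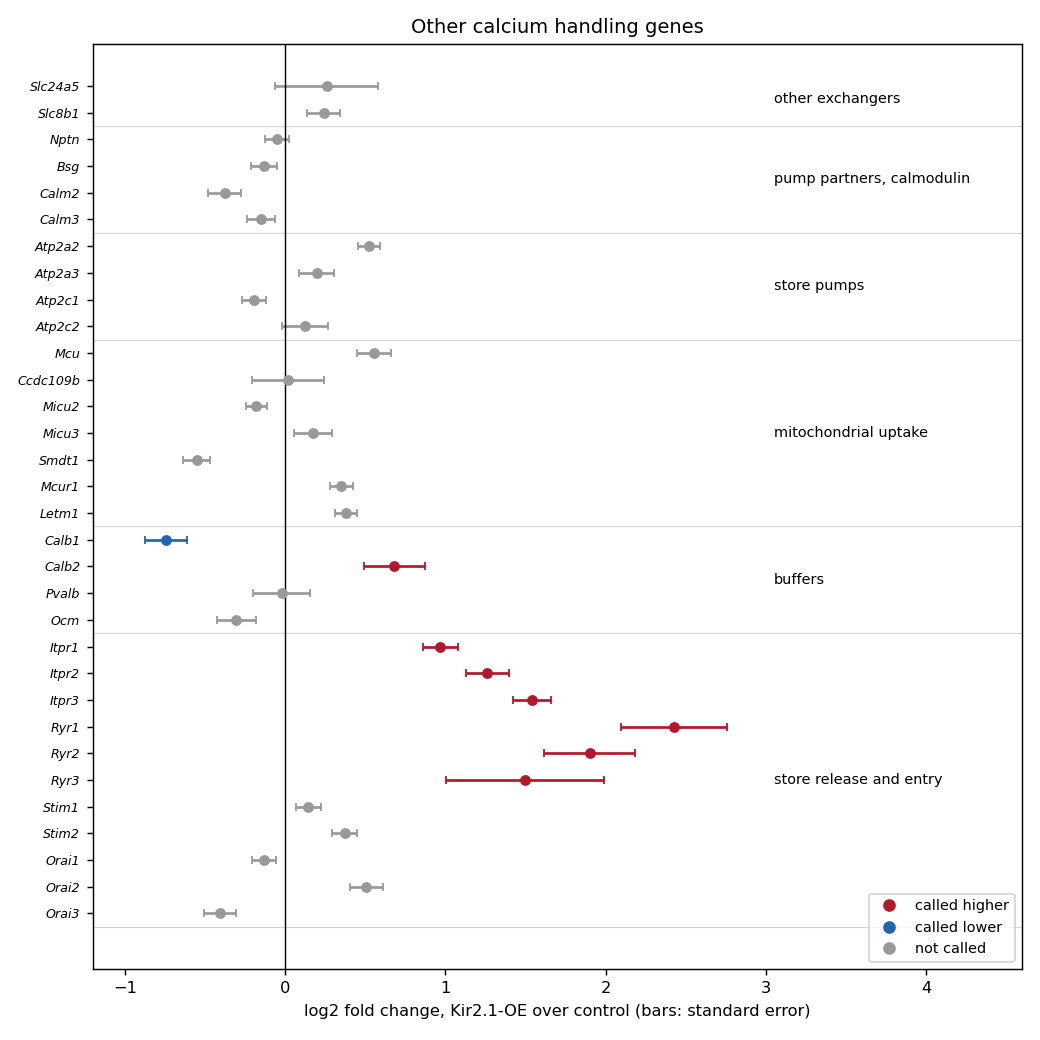
Log2 fold change (Kir2.1-OE over control) with its standard error for the 32 tested genes of Ca2+ handling, grouped by role; red marks calls higher, blue calls lower and grey no call. The release channels Itpr1 to Ryr3 lie between 0.97 and 2.43, and Calb1 is the call below 0, at -0.74.

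The 10 genes share no chromosome as a group. On mm10 Atp2b4 is on chromosome 1 (133699457 to 133801041), Slc24a3 on 2 (145167754 to 145642166), Atp2b2 on 6 (113743831 to 114042613), Slc8a2 on 7 (16129826 to 16161063), Atp2b1 on 10 (98914406 to 99026143), Slc8a1 on 17 (81373105 to 81738377) and Atp2b3 on X (73503086 to 73571005). Slc8a3 (81197915 to 81333180) and Slc24a4 (102128733 to 102267091) are both on chromosome 12. Exons of Slc8a1 overlap an antisense gene over 296 bases that has no row in the count tables, and whether the counting used strand is not given in the sources used here, so reads of the pair cannot be told apart over that stretch.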

How the data were processed

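Poly(A) RNA of the 6 pools was sequenced by the authors, who mapped the reads to mm10, the genome build also named in the submitters' processing notes, with the nf-core RNA pipeline and deposited the expected counts that Salmon estimated per gene. Tool versions, gene annotation and strand setting are not given in the sources used here. Of the deposited values, 6.95% were not whole. Rounded counts entered edgeR (version 4.0.16, under R 4.3.3) with TMM factors of 0.984 to 1.01, the filterByExpr filter (15303 genes kept), the quasi-likelihood F test and Benjamini-Hochberg adjustment over all genes. Transcript length and GC content came from GENCODE release M21, in which 23376 symbols matched by symbol, 656 by an older symbol and 379 not at all. The second fit entered a loess trend (span 0.4) of each library on both as an offset. Coding sequences were aligned with Biopython 1.88. Alternatives were other scalings and filters, DESeq2 1.42.0, limma-voom (limma 3.58.1), the replicate block, other fold thresholds and each library left out. The model was tested on simulated data. A count of 0 allows a share of up to 8.47e-06% in the smallest library (3 counts, counting error only). No 2 libraries of a group agreed within sampling noise (chi-square per degree of freedom 15.69 to 31.15). Named genes were the 10 members, Kcnj2, called genes of the companion lists, the 5 nearest profiles and the neighbours of Slc24a2 in rank. Members and lists were chosen with earlier results of these data known. Some genes of the companion lists and 1 sequence are not reported here, and the counts of those lists leave them out.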

Additional observations from a re-analysis of the deposited data

How the results depend on the processing

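Scaling by DESeq2's size factors or library size, both filter settings, DESeq2's Wald test and limma-voom kept every count of calls within 1.5 times its value. Upper quartile scaling gave 1378 genes lower, 2 companion genes lower and 3 members higher. The length and GC offsets gave 2 members and 988 genes higher, and with the replicate block added 2 members and 799 genes higher and 444 lower. They reversed Slc8a2 (-0.45, and -0.46 with the block), Slc8a3 (-0.0418 and -0.0112) and Atp2b4 (-0.0448 and -0.0473). Without a fold threshold 13 companion genes were called higher and 5 lower, and 4184 and 3590 of all genes. Tested against a log2 fold change of 0.6, 0 companion genes were lower, and 832 genes were higher and 57 lower of all. Leaving out 1 library gave 1 to 2 companion genes lower. The cause of these changes was not tested, except that the offsets differ from the first fit by the length and GC trend alone.

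The libraries share replicate numbers, but same-numbered pools did not deviate together (r = -0.106, -0.232 and -0.213 over genes). Over all pairs of a Kir2.1-OE and a control pool r ran from -0.232 to 0.200. Whether pools shared a litter or batch cannot be told from these values and was not tested. The count column of control replicate 1 is headed with the number 4, so its label's number is not the one in the column name. With the replicate block alone 2220 genes were higher and 718 lower, and among the members, Kcnj2 and the called companion genes, Ryr3 (1.39) alone lost its call. Depth limits Slc24a4, Slc24a1, Atp2a1 and the ryanodine receptors, which rest on few counts.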
